A study of Mus musculus with 4 samples.

Results

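Prostaglandins, thromboxane and leukotrienes are made from arachidonic acid, and the genes described here encode the enzymes that make or inactivate them in mouse macrophages loaded with fatty acids. The members were taken by gene symbol from a list of 10 (Ptgs1, Ptgs2, Ptges, Ptges2, Ptges3, Hpgd, Hpgds, Alox5, Alox5ap and Tbxas1), without regard to their values. Of the 10 genes, 9 had a probe set carrying their symbol alone, 11 probe sets in all, among 22180 genes and 41345 probe sets on the array. Ptgs1 was not analysed here, since the platform annotation used lists no probe set under its symbol. All 9 measured genes passed a filter on low values, set at a mean log2 level of 2.44 over the arrays, and 5 of them (Ptges2, Hpgds, Tbxas1, Alox5ap and Hpgd) also passed a stricter filter at 4.20.

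The cells were macrophages grown from bone marrow of mice aged 8 to 12 weeks, in medium conditioned by L929 cells. The 4 groups were Hilpda flox/flox littermates, called wild type, and HilpdaΔMΦ mice, called knockout, each harvested 12 h or 24 h after adding palmitate and oleate in parts of 1 to 2, at 600 µM in all and bound to albumin. Every group received the fatty acids, so cells without them were not analysed here, and the wild type carried the floxed alleles as well. The labels place the deletion in macrophages and name no Cre driver. RNA of 3 samples was pooled for each of the 4 arrays, which leaves 1 array per group and no replicate error; the labels do not say whether the pooled samples came from separate mice. Hilpda, which encodes an inhibitor of the lipase that empties lipid droplets, was at log2 levels of 5.93 in wild-type and 5.41 in knockout cells at 12 h, and of 5.47 and 5.27 at 24 h, so the array labelled knockout was lower by 0.51 and 0.20 on the log2 scale. The Hilpda probe set may lie outside the deleted part, and its value is therefore a limited check of the labels.

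The pathway begins when a phospholipase frees arachidonate from membrane lipids. Cyclooxygenases, encoded by Ptgs1 and the inducible Ptgs2, turn it into prostaglandin H2, from which the terminal synthases make prostaglandin E2 (Ptges, Ptges2 and Ptges3), prostaglandin D2 (Hpgds) or thromboxane A2 (Tbxas1). On the other branch, 5-lipoxygenase (Alox5) works with its helper protein at the nuclear membrane (Alox5ap) to start leukotriene synthesis, and Hpgd inactivates prostaglandins by oxidising them. Macrophages are a well-known source of these mediators, and Ptgs2 is a standard gene of inflammatory induction.

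At 24 h, Ptgs2 and Hpgd, which stand at the start and at the end of the prostaglandin pathway, were both lower in knockout than in wild type, by 1.79-fold and 1.88-fold. At 12 h neither reached 1.5-fold, and Ptges3 alone was lower in knockout by more than that, 1.63-fold. That value comes from a dim probe set, and brighter ones shared with the pseudogene Ptges3-ps were not lower by 1.5-fold. Tbxas1 and the brighter probe set of Alox5ap varied by no more than 0.10 and 0.045 on the log2 scale over the 4 arrays. Hpgds stood on the other side, with its highest level in knockout at 24 h. None of these differences could be tested at a single time, because each sets 1 array against 1 array.

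The promoters of Ptgs2 and Hpgd, the pair lower together in knockout at 24 h, are shown so that their letters can be compared. They are RefSeq sequences of mouse GRCm38.p6, which were at hand for 9 of the 10 genes, without Alox5ap. The windows shown run 5′ to 3′ from 250 bases before the gene's outermost RefSeq start to 30 bases after it, 280 bases in all. Of the 9 genes, 5 had a window set on that outermost start, Ptgs2 and Hpgd among them. Capitals mark matches to any of 7 motifs on either strand.
Ptgs2, plus strand, chr1:150099781-150100060: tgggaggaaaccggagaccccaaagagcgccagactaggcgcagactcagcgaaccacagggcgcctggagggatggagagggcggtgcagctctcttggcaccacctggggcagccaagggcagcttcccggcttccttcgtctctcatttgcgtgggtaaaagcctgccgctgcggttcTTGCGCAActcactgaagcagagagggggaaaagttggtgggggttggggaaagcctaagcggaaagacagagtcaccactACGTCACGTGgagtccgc
Hpgd, plus strand, chr8:56294302-56294581: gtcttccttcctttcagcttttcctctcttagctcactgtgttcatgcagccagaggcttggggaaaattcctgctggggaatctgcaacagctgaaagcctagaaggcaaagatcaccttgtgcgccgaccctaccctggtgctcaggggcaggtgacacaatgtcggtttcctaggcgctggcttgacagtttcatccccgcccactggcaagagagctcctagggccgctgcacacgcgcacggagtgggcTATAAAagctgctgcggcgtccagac
The Ptgs2 window held a C/EBP-type match (TTGCNNAA) beginning 69 bases before the start, which reads the same on both strands. It also held the core of a cyclic AMP response element (ACGTCA) that begins at base 13 after the start and overlaps an E-box (CACGTG) beginning at base 17. The Hpgd window held a match to the letters of a TATA box (TATAAA), beginning at base 5 after the start. Matches to AP-1 (TGANTCA), to an NF-kB-type motif (GGGANTTTC) and to the PPAR half-site (AGGTCA) were not found in either window. Over 32851 promoter windows of the same length, 10.4% held TTGCNNAA, 1.04% GGGANTTTC, 7.26% ACGTCA, 6.79% CACGTG, 13.1% TATAAA, 7.46% TGANTCA and 15.3% AGGTCA. Positions are counted from the outermost RefSeq start, and the start used in these cells was not measured. These matches describe the sequences only.

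Ptgs2, the inducible cyclooxygenase, had log2 levels of 3.70 in wild-type and 3.89 in knockout cells at 12 h, and of 4.19 and 3.35 at 24 h. The wild-type array at 24 h was therefore the highest and the knockout array at 24 h the lowest. The genotype difference, knockout minus wild type, was 0.19 at 12 h and -0.84 at 24 h, and 130 of the 13354 genes past the filter were as low or lower at 24 h. Between the times its level was 0.49 higher in wild type and 0.54 lower in knockout, so the genotype difference changed by -1.03 from 12 h to 24 h. All 4 levels lay above 2.62, the 95th percentile of the values of 1405 olfactory, vomeronasal and trace amine receptor genes taken as background, but under the stricter filter, in a range where arrays vary more.

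Of the prostaglandin E synthases, Ptges, the inducible microsomal enzyme usually coupled to Ptgs2, had levels of 3.64 in wild-type and 3.62 in knockout cells at 12 h, and of 3.39 and 2.92 at 24 h. It was lowest in knockout at 24 h, 0.70 below knockout at 12 h and 0.46 below wild type at 24 h, whereas the 12 h arrays were alike. Ptges2, a membrane-associated synthase, was at 4.77 and 5.00 at 12 h and at 4.58 and 4.55 at 24 h. Both 24 h arrays of Ptges2 lay below both 12 h arrays, by 0.19 in wild type and 0.45 in knockout.

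Ptges3, the cytosolic synthase also known as the HSP90 co-chaperone p23, was at 4.22 in wild-type and 3.52 in knockout cells at 12 h, and at 3.63 and 3.61 at 24 h. Its difference of -0.71 at 12 h rests on the wild-type 12 h array, the other arrays lying within 0.12 of each other. A pair of brighter probe sets list both Ptges3 and its pseudogene Ptges3-ps. They had genotype differences of -0.11 and 0.24 at 12 h, so neither was lower by 1.5-fold, and the value of Ptges3 is uncertain.

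Hpgds, the haematopoietic prostaglandin D synthase, was at 9.57 in wild-type and 9.74 in knockout cells at 12 h, and at 9.78 and 10.1 at 24 h. The knockout array was the higher one at both times, by 0.17 and 0.30, and the 24 h array was the higher one in both genotypes, by 0.21 and 0.34. None of these reached 1.5-fold, and 12.9% of the genes past the filter had a genotype difference as high or higher at 24 h. Tbxas1, thromboxane A synthase, was at 8.76 in both genotypes at 12 h and at 8.80 in wild-type and 8.86 in knockout cells at 24 h. Its genotype differences of 0.0045 and 0.051 were small beside the SD of 0.23 and 0.31 over the genes past the filter.

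In the leukotriene branch, Alox5 had a dim probe set at 3.89 in wild-type and 3.62 in knockout cells at 12 h, and at 3.53 and 3.47 at 24 h. Its wild-type 12 h array was the highest, and the genotype differences were -0.27 and -0.061. A second Alox5 probe set, dimmer still, gave -0.15 and -0.20. It was highest in wild type at 24 h, at 3.28 against 3.17 in wild type at 12 h, so the Alox5 probe sets disagree over the highest array. Alox5ap, the activating protein, was at 10.5 on every array by its brighter probe set, with genotype differences of -0.045 and 0.035. Its dimmer probe set was at 6.63, 6.70, 7.13 and 6.79 in the order wild type and knockout at 12 h, then wild type and knockout at 24 h, and gave 0.067 and -0.34. The probe sets of Alox5ap thus disagree over the wild-type 24 h array, which was the highest in the dimmer one alone.

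**Figure D1:**
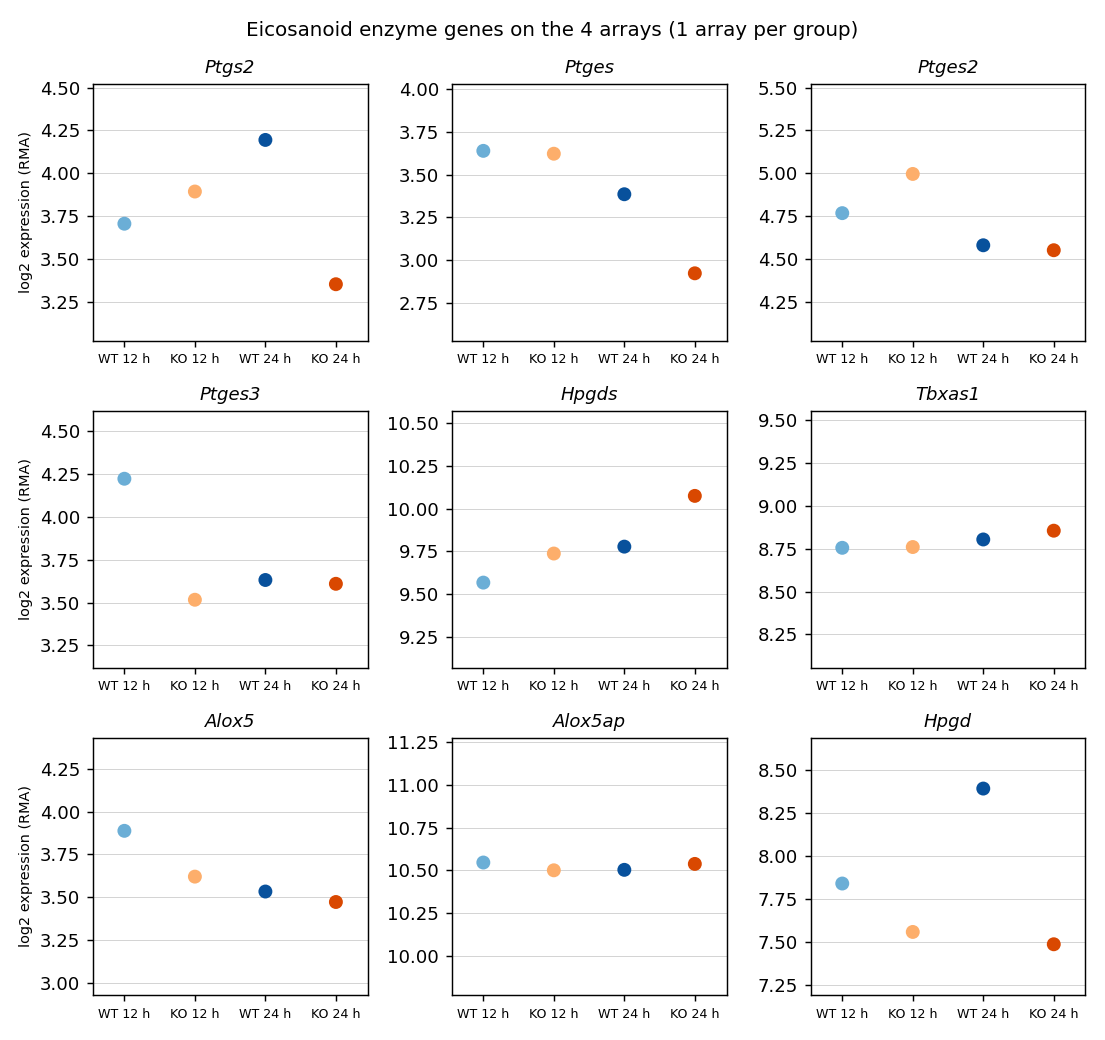
Log2 expression (RMA) of the 9 measured genes on each array, 1 point per array, with the same height of scale in every panel. Ptgs2 and Hpgd were highest in wild type at 24 h (4.19 and 8.39), Ptges3 in wild type at 12 h (4.22) and Hpgds in knockout at 24 h (10.1); levels are not comparable between genes.

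Hpgd, 15-hydroxyprostaglandin dehydrogenase, the main inactivating enzyme of prostaglandins, was at 7.84 in wild-type and 7.56 in knockout cells at 12 h, and at 8.39 and 7.49 at 24 h. The wild-type 24 h array stood above the others, whose levels lay within 0.35 of each other. Both knockout arrays lay below both wild-type arrays, by 0.28 at 12 h and 0.91 at 24 h, and 88 of the 13354 genes were as low or lower at 24 h. With time the level was 0.55 higher in wild type and 0.072 lower in knockout. Hpgd passed the stricter filter, where 2.19% of 9089 genes lay at least 1.5-fold under wild type at 24 h.

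Counted over the 9 genes, 1 was past 1.5-fold between the genotypes at 12 h (Ptges3, lower in knockout), against 2.9% of all genes past the filter. At 24 h 2 were (Ptgs2 and Hpgd, both lower in knockout), against 6.48% of all genes. Between the times, 1 was in wild type (Ptges3, at -0.59), against 8.73%, and 1 in knockout (Ptges, at -0.70), against 6.29%. The value of Ptges3 in wild type, 1.51-fold, lay at the edge of the rule and fell short of it when the arrays were quantile-normalized again. The median difference of the 9 genes was -0.017 and -0.029 between the genotypes at 12 h and 24 h, and -0.043 and -0.072 between the times in wild type and knockout, next to 0.0022, 0.0055, -0.0050 and 0.0021 for all genes. Among dim genes, those between the filters, 6.71% were past 1.5-fold between the genotypes at 12 h and 10.6% at 24 h, so that such a difference was more common at the levels of Ptges3 and Ptgs2 than at that of Hpgd.

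**Figure D2:**
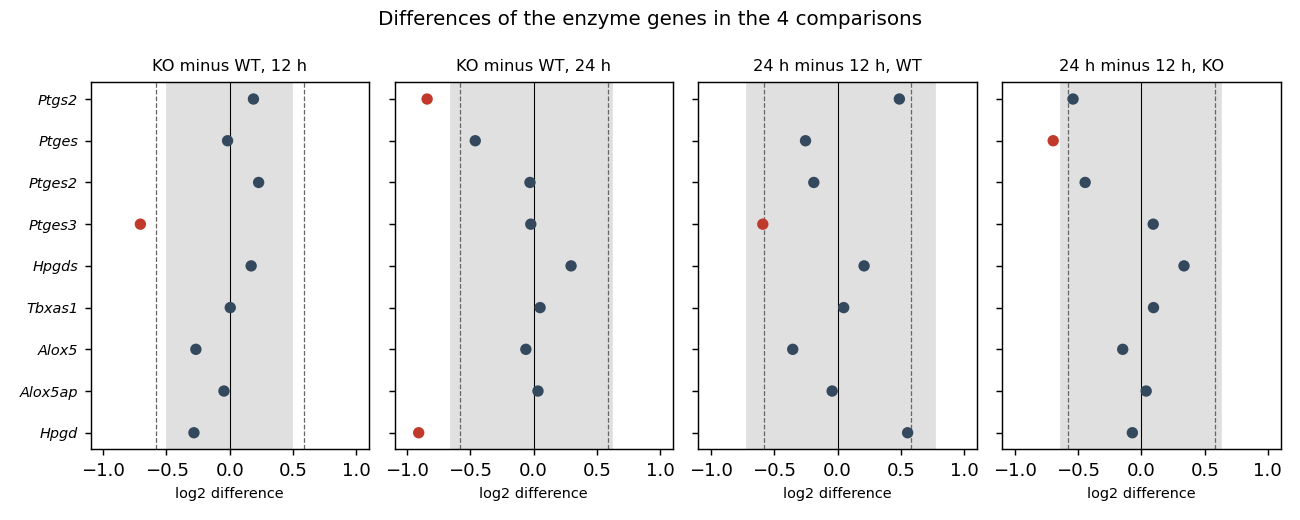
Log2 difference of each gene (points) in the 4 comparisons. The grey band is the central 95% of the 13354 genes past the filter, dashed lines mark 1.5-fold and points past it are red: Ptges3 between the genotypes at 12 h (-0.71) and with time in wild type (-0.59), Ptgs2 and Hpgd at 24 h (-0.84 and -0.91), and Ptges with time in knockout (-0.70).

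The differences were also set against the receptor genes, whose genotype differences had a central 95% from -0.58 to 0.57 at 12 h and from -0.58 to 0.64 at 24 h. Ptges3 at 12 h and Ptgs2 and Hpgd at 24 h lay outside these ranges, and the other members lay inside. For the change between the times the receptor genes ran from -0.65 to 0.53 in wild type and from -0.57 to 0.63 in knockout. Ptges in knockout lay outside, as did Hpgd in wild type, at 0.55, on the higher side, and Ptges3 in wild type lay inside. The genes past the filter had a wider central 95% in wild type, from -0.71 to 0.77. Hpgd lay inside that range, and 5.22% of those genes were as high or higher. In knockout the genes past the filter ran from -0.635 to 0.631, with Ptges, at -0.698, outside. Among dim genes, those between the filters, the range in knockout was -0.700 to 0.703, and Ptges lay just inside it. The genotype and time differences that use the same array share its error and are not separate evidence.

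The only fit across genes, limma with genotype and time as added terms over the 4 arrays, left 1 residual degree of freedom. Its error term therefore reflects how far the 12 h and 24 h genotype differences disagree, rather than replicate error. Of the 9 genes, 0 had an adjusted p under 0.05 for genotype (0% of 13354 genes did) and 0 for time (0% of genes). At an unadjusted p under 0.05 there was 1 member for genotype, against 6.51% of genes, and 1 for time, against 13.2%. For genotype this was Hpgd, lower in knockout in both pairs of arrays, with a mean difference of -0.60 ± 0.19 (SE; limma adjusted p = 0.76). For time it was Ptges, lower at 24 h in both genotypes, at -0.48 ± 0.15 (SE; limma adjusted p = 0.33). Hpgds had a mean genotype difference of 0.23 ± 0.12 (SE; limma adjusted p = 0.77), and Ptgs2, whose genotype differences had opposite signs, of -0.33 ± 0.27 (SE; limma adjusted p = 0.86).

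The rest of the pathway was read from a list of 38 genes for arachidonate release and reacylation, other synthases, the leukotriene branch, other lipoxygenases, breakdown and transport. Of these 35 had a probe set of their own and 29 passed the filter. Between the genotypes 0 of 29 were past 1.5-fold at 12 h, against 2.9% of all genes, and 3 (10.3%) at 24 h, against 6.48%, all of them lower in knockout. With time 5 (17.2%) were past it in wild type, against 8.73%, 4 of them higher at 24 h. In knockout 1 (3.45%) was, higher at 24 h, against 6.29%. The median genotype difference of the 29 was -0.0098 at 12 h and 0.030 at 24 h.

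Among the genes that release and reacylate arachidonate, Lpcat2, which makes membrane phosphatidylcholine and platelet-activating factor in inflammatory cells, was at 7.92 in wild-type and 7.85 in knockout cells at 12 h, and at 8.60 and 7.71 at 24 h. Its wild-type 24 h array stood above the others, and the genotype difference was -0.076 at 12 h and -0.89 at 24 h. Mboat7, an acyltransferase that places arachidonate in phosphatidylinositol, was likewise highest in wild type at 24 h, at 7.82 against 7.16, 7.38 and 7.35. Its time difference in wild type was 0.67, and its genotype difference at 24 h was -0.48. Pla2g7, which inactivates platelet-activating factor, was at 6.34 and 6.53 at 12 h and at 7.20 and 7.33 at 24 h. It was 0.87 higher at 24 h in wild type and 0.80 higher in knockout (limma for time 0.84 ± 0.11, SE, adjusted p = 0.15), with both 24 h arrays above both 12 h arrays. Pla2g4a, the cytosolic phospholipase A2 that frees arachidonate, had genotype differences of -0.055 and 0.071.

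In the leukotriene branch, Lta4h, which makes leukotriene B4, stood at -0.016 and 0.042 between the genotypes, and Ltc4s, leukotriene C4 synthase, at 0.23 and -0.18. Mgst3, a microsomal glutathione transferase, was at 7.37 in both genotypes at 12 h and at 6.76 in wild-type and 7.17 in knockout cells at 24 h. Its wild-type level at 24 h was the lowest, 0.61 below that at 12 h. Dpep1, a dipeptidase that converts leukotriene D4, was dim, at 2.78 and 2.46 at 12 h and at 3.50 and 2.65 at 24 h, with a genotype difference of -0.84 at 24 h that rests on the wild-type array. Of the other genes, Slco2a1, the prostaglandin uptake transporter that brings prostaglandins to Hpgd, was at 4.24 in wild-type and 3.84 in knockout cells at 12 h, and at 4.80 and 4.20 at 24 h. Its genotype difference was -0.40 at 12 h and -0.60 at 24 h, and limma gave -0.50 ± 0.12 (SE, adjusted p = 0.76). The exporter gene Abcc4 stood at -0.0098 and -0.053.

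**Figure D3:**
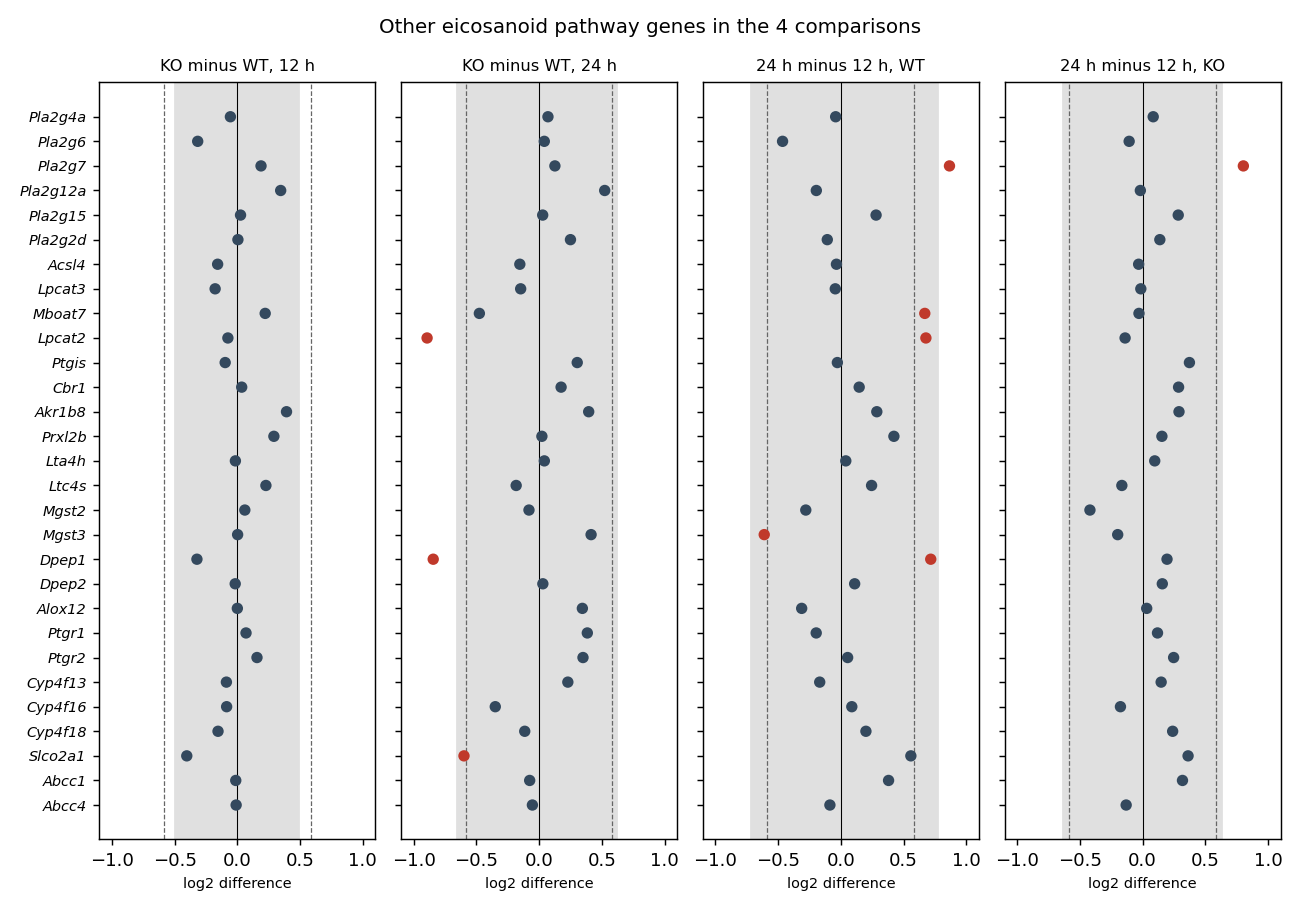
Log2 difference of the 29 further pathway genes past the filter in the 4 comparisons, with the grey band, dashed lines and red points as for the members. At 24 h Lpcat2 (-0.89), Dpep1 (-0.84) and Slco2a1 (-0.60) lay at least 1.5-fold under wild type, and Pla2g7 was higher at 24 h than at 12 h in both genotypes (0.87 and 0.80).

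The cultures were checked for the cells that could carry these transcripts. All 8 macrophage markers were above the background level on every array, with log2 summed levels of 14.2 in wild-type and 14.2 in knockout cells at 12 h, and of 14.5 and 14.2 at 24 h. Of 12 mast cell and basophil markers, cells known for Hpgds, Alox5 and Ltc4s, 11 were at or under the background level on every array, and the twelfth was Kit, at 3.07 to 3.57. Of 7 listed platelet markers 3 (Pf4, Itgb3 and Treml1) were above it on every array. Another 3 (Ppbp, Itga2b and Gp6) were at or under it on every array. Pf4, a platelet chemokine gene, had levels of 6.82 and 7.07 at 12 h and 5.56 and 5.26 at 24 h. Of the 9 neutrophil markers 0 were above it on every array, and neither were the 4 B cell and 5 T and NK cell markers listed. Of 5 dendritic cell and 4 eosinophil markers listed, 2 each were above it on every array.

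Stromal and fibroblast markers, like Hpgd, were lower in knockout at both times. All 9 had a probe set, 7 of them above the background level on every array and 2 (Lum and Thy1) at or under it. On the log2 scale the markers summed to 9.11 in wild-type and 8.61 in knockout cells at 12 h, and to 9.88 and 9.09 at 24 h, so the wild-type array was the higher one at both times and highest at 24 h. The median genotype difference was -0.45 at 12 h, with all 9 genes below 0, and -0.49 at 24 h, with 8 of 9 below 0. Col1a1, a fibrillar collagen gene, stood at -0.58 and -0.88. Fibroblasts also express Ptgs2, Hpgd and Slco2a1, and the part of stromal cells in these values was not tested. In such pools fewer cells of a type and less RNA per cell cannot be told apart. Among macrophage markers, 7 of 8 had a lower value in knockout at 24 h, with a median of -0.27, and Itgam, an integrin subunit, at -0.72 was the single one past 1.5-fold.

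**Figure D4:**
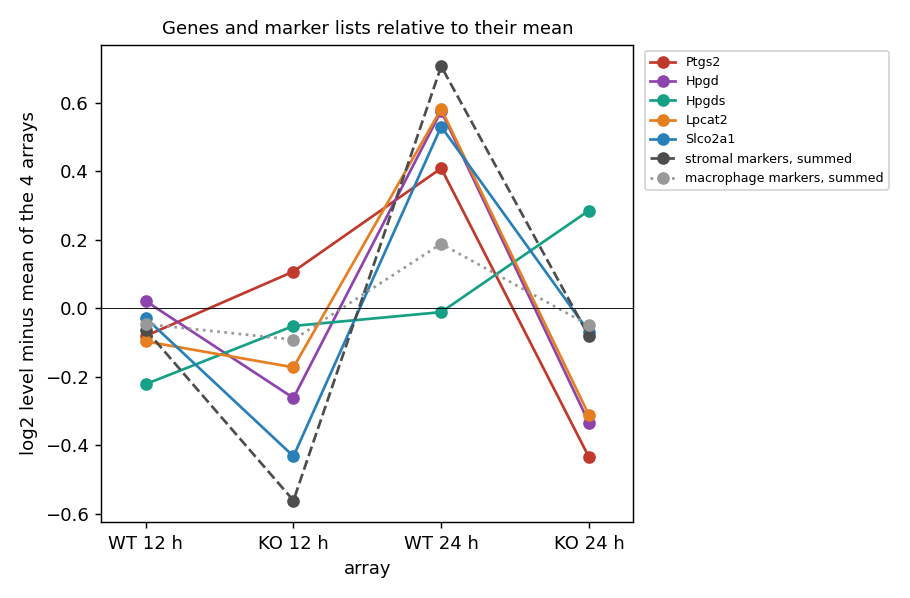
Log2 level minus the mean over the 4 arrays for 5 genes (solid lines) and for the summed stromal (dashed) and macrophage (dotted) markers; lines join the arrays for reading only. Ptgs2, Hpgd, Lpcat2, Slco2a1 and both the stromal and the macrophage sum were highest in wild type at 24 h, while Hpgds was highest in knockout at 24 h.

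The genes past the stricter filter whose pattern over the 4 arrays was most like that of Ptgs2 and of Hpgd were found by the Euclidean distance of levels centred on each gene's mean. For Ptgs2 these were Zfp963, Kansl2 and Pclaf, at distances of 0.093, 0.099 and 0.14, where the median gene was at 0.67. Their genotype differences at 24 h were -0.81, -0.92 and -0.67. For Hpgd, the other member with the largest range, they were Slc25a42, Pcolce and Col4a1, at 0.083, 0.097 and 0.10, with a median of 0.76. Between the genotypes at 24 h these 3 stood at -0.91, -0.78 and -0.83. Ptgs2 and Hpgd were 0.43 apart, and 370 of 9089 genes lay nearer to Ptgs2 than Hpgd did, and the pair differed most on the knockout 12 h array. With 4 arrays, such likeness is a description.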

How the data were processed

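The authors deposited log2 values per probe set of an Affymetrix whole-transcript array, which the submitters' processing notes credit to RMA; its version and the annotation are not given in the sources used here. RMA corrects background, brings the arrays to like distributions and summarises probes, so a common shift of every transcript cannot be seen. Per the labels' protocols, each array carried a pool from 3 samples, and 4 arrays limit the precision. The table held 0 columns without a sample.

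Of 41345 probe sets, 23521 carried 1 gene symbol, and 23328 of these matched RefSeq by gene ID. Where a gene had several, the one with the highest mean was used. Genes with a mean at or above the 40th percentile of these probe sets (13354) were kept. Differences are log2 values of 1 array minus another, counted at 1.5-fold and not tested. limma 3.58.1 (R 4.3.3) fitted genotype and time with Benjamini-Hochberg adjustment, after being tested on simulated data.

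Named genes were the members, Hilpda, genes of the wider list past 1.5-fold in any comparison, and the 3 nearest in pattern to Ptgs2 and to the other member of largest range. Further pathway genes and markers were named after their values were seen. Members, lists and promoter motifs were chosen with earlier results of these data known. Alternatives were other level filters, fold rules and scalings, a loess (span 0.3) of each difference on level, the mean over probe sets, and a variance trend in limma.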

Additional observations from a re-analysis of the deposited data

Results flagged for a closer look

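For 3 of the 9 measured genes the time difference had opposite signs in the 2 genotypes and the genotype difference changed between the times by more than 1.5-fold. With 1 array per group the change itself was not tested. It was -1.03 on the log2 scale for Ptgs2, 0.68 for Ptges3 and -0.63 for Hpgd. The Ptges3 value comes from a dim probe set and is uncertain. Its brighter probe sets, shared with Ptges3-ps, had genotype differences of -0.11 and 0.24 at 12 h, and of 0.12 and -0.072 at 24 h. The sign rule rests on small time differences in knockout for Hpgd (-0.072) and Ptges3 (0.093). Of all genes past the filter, 10.1% had a change of as much as 1.5-fold, counted without the rule on signs. That share therefore follows a wider rule than the 3 genes do. The central 95% of the change ran from -0.78 to 0.74, so that Ptgs2 alone of the members lay outside it. Among the receptor genes taken as background the central 95% ran from -0.78 to 0.85.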

How the results depend on the processing

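Under median centring, renewed quantile normalization, loess and the mean over probe sets, the members' differences, and their change from 12 h to 24 h, moved by less than 1 SD of the receptor genes in all 180 values recomputed. The mean over probe sets could alter only Alox5 and Alox5ap, since the other measured genes had 1 probe set each. Within that bar signs could still change. With this mean, Alox5ap went from -0.043 to 0.23 with time in wild type and from 0.035 to -0.16 between the genotypes at 24 h. The counts of members past 1.5-fold kept the same named genes without a level filter, with centring, with loess and with the mean over probe sets. With the stricter level filter, which removes Ptgs2, Ptges, Ptges3 and Alox5, the counts between the genotypes were 0 at 12 h (1.11% of all genes) and 1 at 24 h (Hpgd; 4.52%), and those between the times 0 in wild type (7.68%) and 0 in knockout (4.78%). A 2-fold rule gave 0 in all 4 comparisons. A 1.3-fold rule gave 1 at 12 h (Ptges3; 9.89% of all genes) and 3 at 24 h (Ptgs2, Ptges and Hpgd; 17.1%) between the genotypes, 3 with time in wild type (Ptgs2, Ptges3 and Hpgd; 20.4%) and 3 in knockout (Ptgs2, Ptges and Ptges2; 16.8%). Quantile normalization gave 0 with time in wild type, where Ptges3 had been at the edge. limma called 0 members for genotype and 0 for time under every alternative run. Over all genes it called 0 for time as reported, but 539 with a variance trend, 114 with the stricter filter and 38 after centring; the cause was not tested. The limma fit compares the genotypes within each time; the labels give no other pairing. Leaving out an array leaves limma without a residual degree of freedom.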

Other observations

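Several other genes of the pathway had higher values in knockout at both times, though none reached 1.5-fold; they were picked after their values were seen. Akr1b8, an aldo-keto reductase, was at 0.39 at 12 h and 0.40 at 24 h (limma 0.39 ± 0.11, SE, adjusted p = 0.76). Pla2g12a, a secreted phospholipase A2, was at 0.35 and 0.52 (limma 0.43 ± 0.12, SE, adjusted p = 0.76). Ptgr1 and Ptgr2, reductases that carry on the breakdown begun by Hpgd, were at 0.069 and 0.16 at 12 h and at 0.38 and 0.35 at 24 h, on the other side from Hpgd.

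The wild-type 12 h array held the highest value of 4 of the 9 measured enzyme genes, next to 22.5% of all genes past the filter. For Ptges (3.64 against 3.62 in knockout at 12 h) and Alox5ap (10.546 against 10.538 in knockout at 24 h) this was narrow. The dimmer probe sets of Alox5 and Alox5ap were highest in wild type at 24 h. Those shared by Ptges3 and Ptges3-ps were highest in a knockout array. The knockout 24 h array held the lowest of 5, next to 24.0%. The wild-type 24 h array held the highest of 2 and the lowest of 0. Over all genes past the filter its shares, 28.5% highest and 30.2% lowest, were the largest of the 4 arrays. The genotype differences of Ptgs2 and Hpgd at 24 h use that array.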
